A study of Mus musculus with 8 samples.

Results

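Collagen genes are described here as they were measured in RNA of mouse olfactory epithelium, the sensory lining of the nose, which lies on a layer of connective tissue called the lamina propria. The genes were chosen by symbol, Col followed by a type number, the letter a and a chain number. Of 25913 genes with deposited counts, 42 carried such a symbol, and 40 of these were among the 17381 genes that passed the filter on low counts. Each gene encodes 1 alpha chain, and chains wind into a triple helix of identical or different chains. Fibrillar collagens (types I, III and V among them) build the fibres of connective tissue, type IV builds the sheet of the basement membrane under every epithelium and around vessels, and types II, IX, X and XI are best known from cartilage. Other types sit on fibres, form fine networks or span the cell membrane. In the olfactory mucosa, fibroblasts of the lamina propria, vessels, nerve bundles and the bone and cartilage of the turbinates and septum all make collagen.

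The tested libraries were the 4 titled OMP_IGF1R (numbers 11, 12, 17 and 18), and they were set against the 4 titled IGF1R_flfl (numbers 1, 2, 3 and 13). All 8 came from C57BL/6J mice aged 40 weeks. The series describes a homozygous, tissue-specific knockout of Igf1r, the receptor of insulin-like growth factor 1, with its control, in 4 replicates a group. The labels do not spell out the promoter that drove the deletion, and nothing in them says that each library is a separate mouse. P-values therefore measure the spread between samples alone, and that spread may be technical. Titles and the genotype field contradict each other: OMP_IGF1R titles carry the control genotype OMPflfl and IGF1R_flfl titles carry the knockout genotype OMPIGF1. Groups are therefore called by their titles, and every fold change is of libraries titled OMP_IGF1R over libraries titled IGF1R_flfl. Library numbers ran from 35156 to 35159 in the OMP_IGF1R group and from 35138 to 35141 in the IGF1R_flfl group, so a batch that follows them and the group cannot be told apart.

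Total counts per library ran from 18802471 to 27793375. Levels are in CPM, counts per 1e6 counts of the library size after TMM scaling. Igf1r stood at 49.6, 43.9, 34.5 and 40.5 CPM in the OMP_IGF1R libraries, against 72.9, 55.5, 69.9 and 67.9 CPM in the IGF1R_flfl libraries (log2 fold change -0.66, SE 0.116, edgeR adjusted p = 0.0117), and the group with less Igf1r is thus the one labelled control by genotype. A count of the whole gene does not measure a deletion of part of it. Markers of the labelled tissue were abundant: Omp of mature olfactory neurons averaged 1969 ± 224 CPM in OMP_IGF1R libraries and 5386 ± 990 CPM in IGF1R_flfl libraries, and Cyp2g1 of sustentacular cells averaged 4029 ± 337 and 4568 ± 469 CPM (SD, n = 4 each). Connective tissue was present too. The small proteoglycan Dcn averaged 696 ± 27.8 CPM in OMP_IGF1R libraries and 577 ± 81.1 CPM in IGF1R_flfl libraries, and the fibroblast receptor Pdgfra averaged 68.1 ± 4.1 and 54.7 ± 10.6 CPM (SD, n = 4 each). These are bulk samples, in which fewer cells of a type and less RNA per cell cannot be told apart.

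Collagen genes were mostly a little higher in the OMP_IGF1R libraries, but few differences passed the test. Col27a1, Col9a2 and Col7a1 rose, by 1.56-fold, 1.49-fold and 1.23-fold, and no collagen gene fell. The 3 that rose were 7.5% of the 40 tested, where 2.83% of all genes tested rose, and the 0 that fell compare with 5.37% of all genes. At an unadjusted edgeR p under 0.05, 12 collagen genes (30%) were higher, against 9.35% of all genes, and 0 were lower, against 14.1%. The groups did not overlap in 7 collagen genes (17.5%), all of them higher in OMP_IGF1R libraries, namely Col5a3, Col7a1, Col8a1, Col9a2, Col9a3, Col20a1 and Col27a1. Over all genes the groups did not overlap for 6.57% with OMP_IGF1R higher and for 10.3% with OMP_IGF1R lower. The sign was positive for 35 of 40 collagen genes (87.5%) and for 47.49% of all genes, and the median log2 fold change was 0.18 for collagen genes and -0.012 for all genes. DESeq2 called 5 collagen genes higher and 0 lower, and limma voom with sample weights called 4 higher and 0 lower. The shares of all genes that DESeq2 and voom called are not given here, so these counts cannot be ranked against that of edgeR. The number called higher was 5 without IGF1R_flfl 2, where 2.94% of all genes were called higher. It was 1 when OMP_IGF1R 11 was left out, 0 when OMP_IGF1R 12 was and 1 when OMP_IGF1R 18 was, and in these fits 1.46%, 1.24% and 1.08% of all genes were called higher. At an unadjusted p under 0.05, leaving out OMP_IGF1R 11 gave 6 higher collagen genes (7.98% of all genes), leaving out OMP_IGF1R 12 gave 8 (7.41%), leaving out OMP_IGF1R 18 gave 7 (7.33%) and leaving out IGF1R_flfl 3 gave 8 (8.73%). The median log2 fold change was 0.098 without IGF1R_flfl 3.

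**Figure D1:**
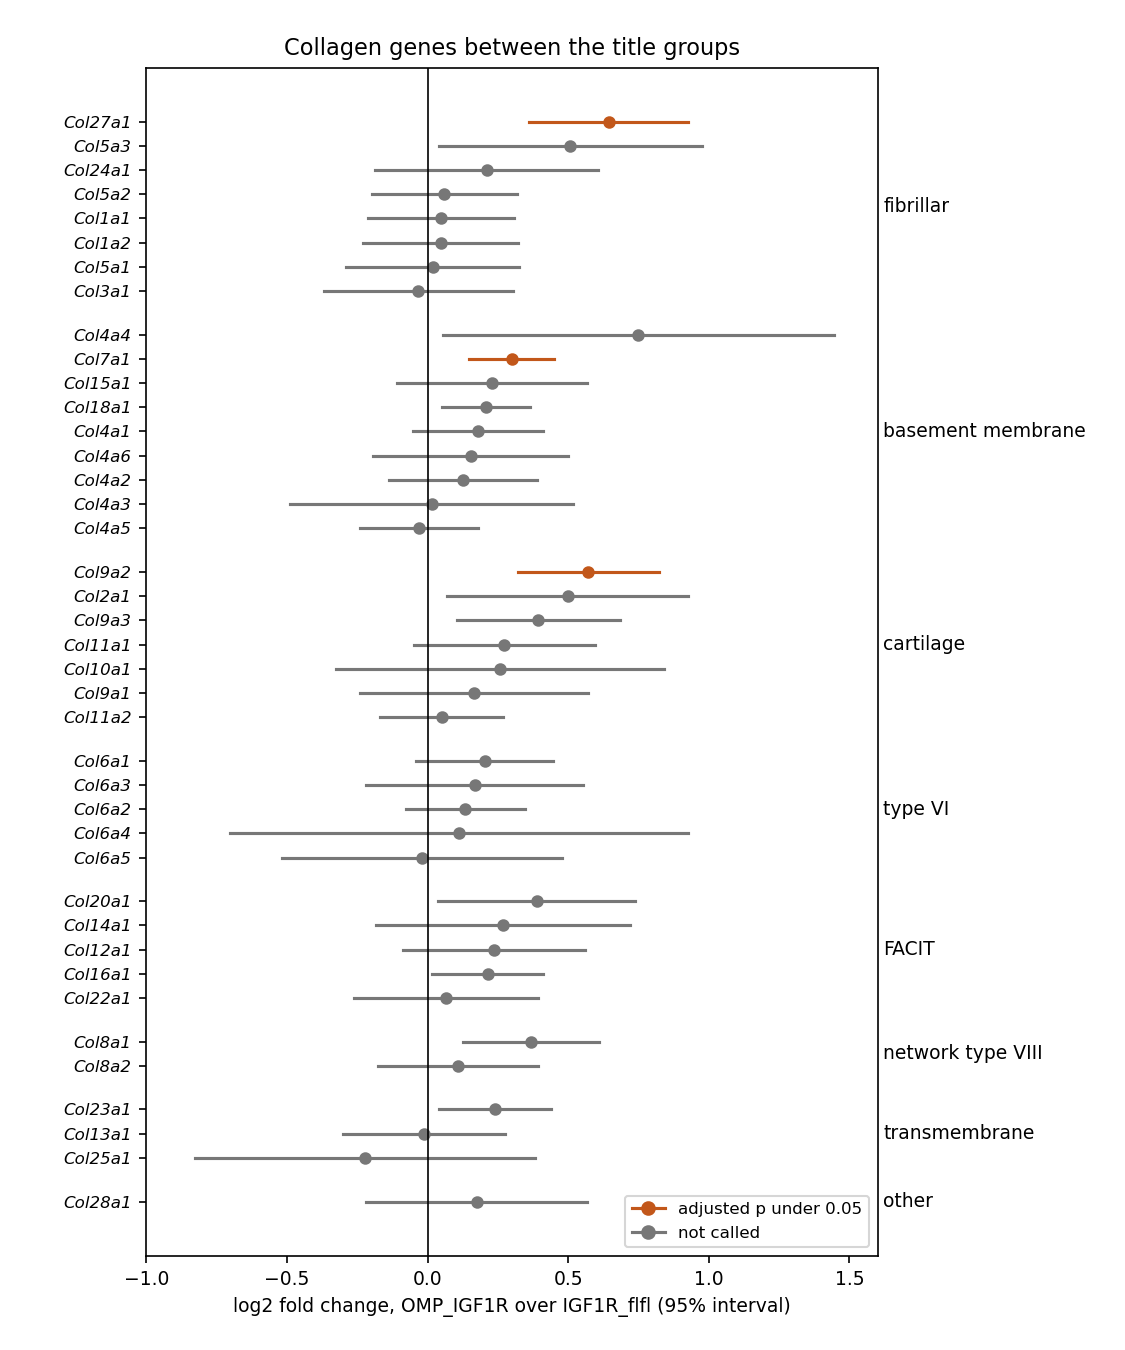
Log2 fold change of the 40 tested collagen genes, libraries titled OMP_IGF1R over libraries titled IGF1R_flfl (x axis), with 95% intervals, grouped by class down the page (n = 4 a group). Orange marks the 3 genes past an edgeR adjusted p of 0.05, Col27a1, Col9a2 and Col7a1, and points of 35 of the 40 genes lie right of 0.

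Among the fibrillar chains, the abundant ones of ordinary connective tissue stayed within the spread and a minor one rose. Col27a1 (ENSMUSG00000045672, GRCm38 chromosome 4, 63214004 to 63334991) encodes the chain of type XXVII collagen, best known from developing cartilage. Col27a1 stood at 36.5, 31.1, 25.5 and 28.8 CPM in OMP_IGF1R 11, 12, 17 and 18, against 17.1, 21.6, 21.9 and 17.4 CPM in IGF1R_flfl 1, 2, 3 and 13. Every OMP_IGF1R library was above every IGF1R_flfl library, and OMP_IGF1R 17 was the nearest to them. On average Col27a1 had 30.5 ± 4.63 CPM in OMP_IGF1R and 19.5 ± 2.6 CPM in IGF1R_flfl libraries (SD, n = 4 each; log2 fold change 0.64, SE 0.125, edgeR adjusted p = 0.0163). The call was lost without OMP_IGF1R 12 (adjusted p = 0.0523) and held in the 7 other fits that left out 1 library.

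Type I collagen, the main protein of tendon, bone and loose connective tissue, is built of chains from Col1a1 and Col1a2. Col1a1 stood at 691, 704, 582 and 850 CPM in OMP_IGF1R libraries, against 702, 722, 593 and 716 CPM in IGF1R_flfl libraries. Col1a2 stood at 780, 835, 736 and 986 CPM in OMP_IGF1R libraries, against 860, 904, 644 and 821 CPM in IGF1R_flfl libraries. For both chains OMP_IGF1R 18 was the highest library and the groups overlapped widely. The fold was 1.03 for Col1a1 (95% interval 0.864 to 1.24, edgeR adjusted p = 0.844) and 1.03 for Col1a2 (0.853 to 1.25, edgeR adjusted p = 0.859). Col3a1, the chain of type III fibres that run with type I, stood at 182, 173, 190 and 218 CPM in OMP_IGF1R libraries, against 236, 214, 137 and 194 CPM in IGF1R_flfl libraries, a fold of 0.978 (0.775 to 1.23, edgeR adjusted p = 0.922). These 3 genes took 58.2% to 63.9% of the reads counted on collagen genes in each library. Type V chains are built into type I fibres and limit their width, and Col5a1 and Col5a2 had log2 fold changes of 0.02 and 0.06 with overlapping groups. Col5a3 did not overlap, at 4.68 to 6.17 CPM in OMP_IGF1R libraries and 2.3 to 4.59 CPM in IGF1R_flfl libraries, but was not called (log2 fold change 0.51, SE 0.208, edgeR adjusted p = 0.177). Col24a1, a fibrillar chain known from bone, had a log2 fold change of 0.21 (edgeR adjusted p = 0.521). Of the 8 fibrillar chains 1 rose and 0 fell, and their median log2 fold change was 0.054, or -0.018 without IGF1R_flfl 3.

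In the basement membrane class, Col7a1 was the 1 gene of 9 that rose. Type VII collagen forms the anchoring fibrils that tie the basement membrane of stratified epithelia to the tissue below. Col7a1 (ENSMUSG00000025650, chromosome 9, 108953586 to 108984875) stood at 23.2, 22.3, 21.9 and 21.4 CPM in OMP_IGF1R libraries, against 19.3, 17.8, 16.5 and 18.5 CPM in IGF1R_flfl libraries. Both groups were tight and did not overlap. On average Col7a1 had 22.2 ± 0.771 CPM in OMP_IGF1R and 18 ± 1.21 CPM in IGF1R_flfl libraries (SD, n = 4 each; log2 fold change 0.30, SE 0.0678, edgeR adjusted p = 0.0284). The call was lost without IGF1R_flfl 3, OMP_IGF1R 11, OMP_IGF1R 12 or OMP_IGF1R 18, and without IGF1R_flfl 2 and OMP_IGF1R 17 together (adjusted p of 0.0524 to 0.0847).

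Col4a1, the most abundant chain of the basement membrane class in CPM and a part of nearly all basement membranes, stood at 51, 54.7, 49.1 and 49.2 CPM in OMP_IGF1R libraries, against 49, 46.3, 35 and 49.9 CPM in IGF1R_flfl libraries (log2 fold change 0.18, SE 0.103, edgeR adjusted p = 0.336). The low value was that of IGF1R_flfl 3. Col18a1, whose chain carries heparan sulfate and releases the fragment endostatin, stood at 48.1, 40.3, 44.9 and 43.2 CPM in OMP_IGF1R libraries, against 40.2, 36.2, 35.8 and 40.5 CPM in IGF1R_flfl libraries (log2 fold change 0.21, SE 0.0699, edgeR adjusted p = 0.108). OMP_IGF1R 12 lay just under IGF1R_flfl 13, so the groups overlapped. Slc19a1, on the opposite strand, overlaps Col18a1 and had a mean count of 72.8% of that of Col18a1, and the strand setting of the counting is not given in the sources used here. Col4a3 and Col4a4, chains of the kidney filter, were near the lower end of detection, at 0.867 to 1.42 and 0.619 to 1.24 CPM in OMP_IGF1R libraries and 0.838 to 1.23 and 0.317 to 0.724 CPM in IGF1R_flfl libraries. Col4a4 had the highest fitted log2 fold change of all collagen genes, 0.75, on 8 to 33 reads per library, and it was not called (SE 0.31, edgeR adjusted p = 0.181). Col4a2, Col4a5, Col4a6 and Col15a1 were not called, with log2 fold changes of -0.03 for Col4a5 to 0.23 for Col15a1.

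All 7 cartilage chains had positive fold changes, and Col9a2 rose. Type IX collagen coats type II fibres in cartilage, and its molecule joins the chains of Col9a1, Col9a2 and Col9a3. Col9a2 (ENSMUSG00000028626, chromosome 4, 121039385 to 121055322) stood at 19.6, 17.6, 15.6 and 18.1 CPM in OMP_IGF1R libraries, against 9.74, 12.9, 12.7 and 12.4 CPM in IGF1R_flfl libraries. The groups did not overlap, and IGF1R_flfl 1 was the lowest library. The average was 17.8 ± 1.66 CPM in OMP_IGF1R and 11.9 ± 1.48 CPM in IGF1R_flfl libraries (SD, n = 4 each; log2 fold change 0.57, SE 0.112, edgeR adjusted p = 0.0165), and the call was lost without OMP_IGF1R 11, 12 or 18 (adjusted p of 0.0514 to 0.0562). Col9a3 stood at 19.3, 17.5, 16 and 16.9 CPM in OMP_IGF1R libraries, against 12.4, 15.6, 10.3 and 14.7 CPM in IGF1R_flfl libraries, also without overlap but not called (log2 fold change 0.39, SE 0.129, edgeR adjusted p = 0.0984). The third chain, Col9a1, overlapped, at 20.9 to 31.5 CPM in OMP_IGF1R libraries and 15.6 to 25.4 CPM in IGF1R_flfl libraries (log2 fold change 0.16, SE 0.18, edgeR adjusted p = 0.634).

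Col2a1, the chain of the main cartilage fibre, was low, at 7.75, 7.69, 4.91 and 6.99 CPM in OMP_IGF1R libraries, against 6.08, 3.92, 5.2 and 4.13 CPM in IGF1R_flfl libraries (log2 fold change 0.50, SE 0.191, edgeR adjusted p = 0.151). Col11a1 and Col11a2, chains of the thin fibre core, were the most abundant of the class in CPM. Col11a1 stood at 44.8, 43.3, 32.1 and 36 CPM in OMP_IGF1R libraries, against 29.6, 36.5, 25.5 and 37.6 CPM in IGF1R_flfl libraries (log2 fold change 0.27, edgeR adjusted p = 0.29). Col11a2 stood at 37.4, 36, 31.3 and 39.7 CPM in OMP_IGF1R libraries, against 34, 39.7, 30 and 35.7 CPM in IGF1R_flfl libraries (log2 fold change 0.05, edgeR adjusted p = 0.799). Both overlapped. Col10a1, a chain of hypertrophic cartilage, had a log2 fold change of 0.26 (edgeR adjusted p = 0.603), and it shares its locus with Nt5dc1, whose mean count was 637% of that of Col10a1. Of 15 cartilage cell markers 11 passed the filter, with 0 called in either direction by edgeR, DESeq2 or voom (2 higher at an unadjusted p under 0.05) and a median log2 fold change of -0.03. At that unadjusted threshold 9.35% of all genes tested were higher. The 2 higher markers were Cilp and Sox9, with log2 fold changes of 0.50 and 0.20. Of the 11 markers 5 had positive and 6 negative values. Acan, the large proteoglycan of cartilage, had the lowest, -0.55 (edgeR adjusted p = 0.321). It averaged 2.11 ± 0.404 CPM in OMP_IGF1R and 3.07 ± 1.46 CPM in IGF1R_flfl libraries (SD, n = 4 each), with 5.22 CPM in IGF1R_flfl 2. The summed level of the markers was 120 to 131 CPM in OMP_IGF1R libraries and 102 to 132 CPM in IGF1R_flfl libraries. Their part in the differences of the cartilage collagens was not tested.

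**Figure D2:**
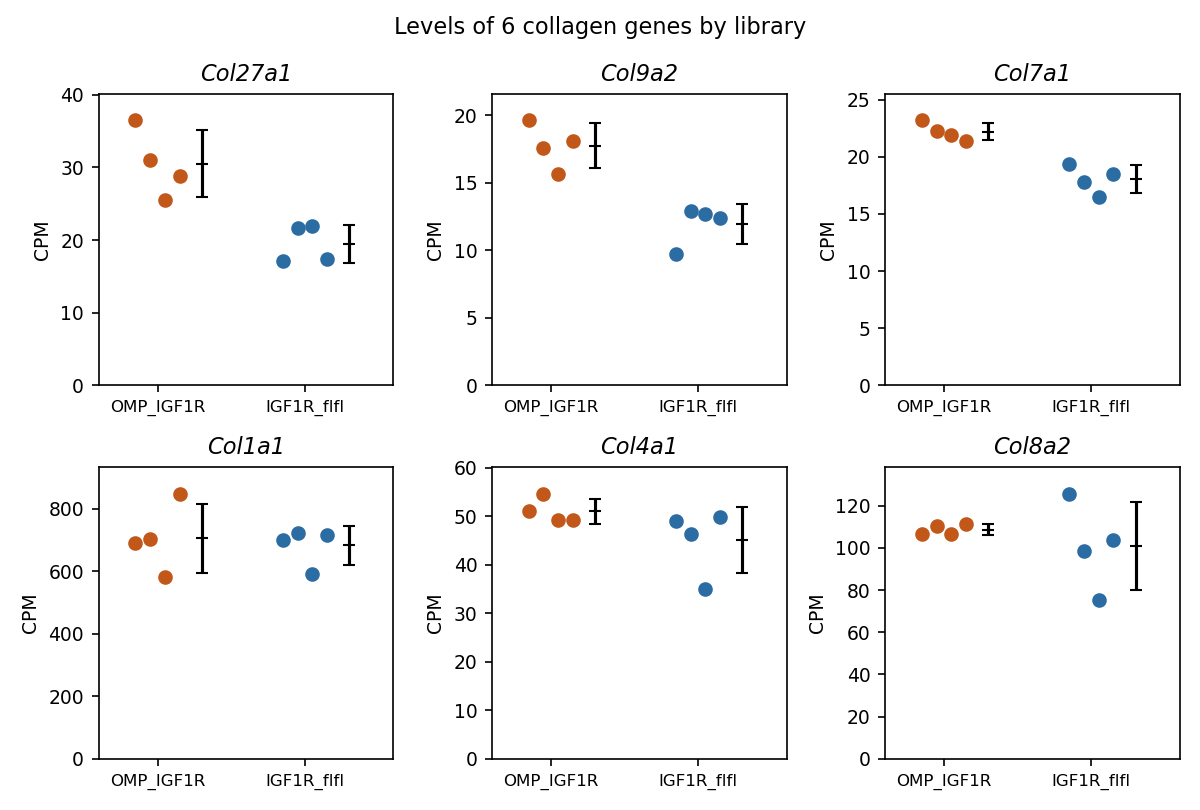
CPM (y axis, from 0) of 6 collagen genes in the 4 OMP_IGF1R libraries (left, orange) and the 4 IGF1R_flfl libraries (right, blue), with the mean and SD of each group in black. The groups are apart for Col27a1, Col9a2 and Col7a1 and overlap for Col1a1, Col4a1 and Col8a2.

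The stretches before the start sites of the 3 genes that rose are shown because these are the collagen genes that passed the test, from the RefSeq promoter table (GRCm38.p6), 5′ to 3′ on the plus strand, with the letters GGGCGG, a GC box, in capitals. Bases inside a GENCODE M21 exon of the gene were left off, which leaves 69 of 250 bases for Col9a2.
Col27a1, chr4:63215162-63215411: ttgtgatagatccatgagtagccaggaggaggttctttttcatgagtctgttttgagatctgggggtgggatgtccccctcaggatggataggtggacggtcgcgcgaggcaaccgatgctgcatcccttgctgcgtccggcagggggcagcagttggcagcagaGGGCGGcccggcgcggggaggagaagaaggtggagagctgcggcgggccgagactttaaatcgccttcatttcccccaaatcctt
Col9a2, chr4:121039316-121039384: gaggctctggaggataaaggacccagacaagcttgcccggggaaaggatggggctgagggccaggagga
Col7a1, chr9:108953336-108953585: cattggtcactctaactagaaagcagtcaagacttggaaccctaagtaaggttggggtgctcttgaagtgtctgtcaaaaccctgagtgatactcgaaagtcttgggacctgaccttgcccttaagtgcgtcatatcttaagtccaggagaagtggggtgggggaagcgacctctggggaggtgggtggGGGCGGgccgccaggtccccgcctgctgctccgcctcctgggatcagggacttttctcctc
Col27a1 and Col7a1 hold 1 GC box each in these bases and Col9a2 holds 0, and none holds TATAAA, both motifs searched on both strands. The GC box, which does not overlap TATAAA, occurred in 22 of 37 promoter windows of 250 bases of the 34 collagen genes in the table and in 32.7% of all 32851 windows, while TATAAA occurred in 4 of 37 and in 12.4% of all. The window of Col27a1 lies inside the span that the deposited counts give to the gene. A match of letters is not a binding site.

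Type VI collagen forms beaded microfibrils around cells, and 0 of its 5 tested genes were called. Col6a1 stood at 71.4, 69.2, 66.5 and 82.7 CPM in OMP_IGF1R libraries, against 68.5, 67.8, 49.8 and 65.7 CPM in IGF1R_flfl libraries (log2 fold change 0.20, SE 0.108, edgeR adjusted p = 0.296). Col6a2 stood at 52.3, 51.8, 50.1 and 57.6 CPM in OMP_IGF1R libraries, against 54.4, 48.9, 39.3 and 50.3 CPM in IGF1R_flfl libraries (log2 fold change 0.14, edgeR adjusted p = 0.427). In both genes IGF1R_flfl 3 was the lowest library. Col6a3, Col6a4 and Col6a5 had log2 fold changes of 0.17, 0.11 and -0.02, and Col6a6, with 0 to 4 reads per library, was not tested. None of the 5 had an unadjusted edgeR p under 0.05, and DESeq2 and voom called 0 of the class.

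Type IX, also a FACIT collagen, is counted in the cartilage class above, where Col9a2 rose. The other FACIT collagens, which lie on the surface of fibres, had 0 of 5 tested genes called by edgeR, DESeq2 or voom. Of these 5, 2 were higher at an unadjusted edgeR p under 0.05, against 9.35% of all genes tested. Col12a1 stood at 129, 123, 103 and 124 CPM in OMP_IGF1R libraries, against 119, 107, 71.6 and 109 CPM in IGF1R_flfl libraries (log2 fold change 0.24, SE 0.144, edgeR adjusted p = 0.359). Col16a1 stood at 68.2, 59.9, 59.1 and 64.4 CPM in OMP_IGF1R libraries, against 61.9, 55.3, 45.9 and 53.8 CPM in IGF1R_flfl libraries (log2 fold change 0.21, SE 0.0879, edgeR adjusted p = 0.179). The groups overlapped in both, with IGF1R_flfl 3 lowest. Col20a1 did not overlap, at 3.19 to 3.92 CPM in OMP_IGF1R libraries and 2.1 to 3.04 CPM in IGF1R_flfl libraries (log2 fold change 0.39, SE 0.156, edgeR adjusted p = 0.169). Col14a1 and Col22a1 had log2 fold changes of 0.27 and 0.07, and Col19a1, with 0 to 12 reads per library, was not tested.

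Type VIII collagen forms a hexagonal network in the cornea and vessel walls. Col8a1 stood at 33.8, 36, 39.1 and 32.6 CPM in OMP_IGF1R libraries, against 31.2, 26, 22.3 and 30.1 CPM in IGF1R_flfl libraries, without overlap. It was not called by edgeR (log2 fold change 0.37, SE 0.108, adjusted p = 0.0687) and was called higher by DESeq2. The other type VIII chain, Col8a2, stood at 106, 110, 107 and 111 CPM in OMP_IGF1R libraries, against 126, 98.6, 75.5 and 104 CPM in IGF1R_flfl libraries. The IGF1R_flfl spread was wider (SD 20.6 against 2.58 CPM in OMP_IGF1R) and covered all OMP_IGF1R values (log2 fold change 0.11, edgeR adjusted p = 0.661).

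Of the transmembrane collagens, Col23a1 stood at 59.1, 54.7, 52.2 and 58.2 CPM in OMP_IGF1R libraries, against 44.4, 54.6, 40.6 and 50.1 CPM in IGF1R_flfl libraries (log2 fold change 0.24, SE 0.0891, edgeR adjusted p = 0.139, and 0.0382 without IGF1R_flfl 2). Col13a1, a chain known from muscle synapses, stood at 11.7, 12.1, 10.7 and 11.7 CPM in OMP_IGF1R libraries, against 13.4, 13.4, 9.52 and 10.3 CPM in IGF1R_flfl libraries, which enclosed them (log2 fold change -0.01, edgeR adjusted p = 0.963). Col25a1, made by neurons, had the lowest log2 fold change of the 40, -0.22, with a 95% interval of -0.82 to 0.38. Col28a1, known from peripheral nerve, stood at 15.6, 12.2, 10.7 and 11.5 CPM in OMP_IGF1R libraries, against 9.31, 13.1, 8.61 and 13.2 CPM in IGF1R_flfl libraries (log2 fold change 0.17, edgeR adjusted p = 0.597).

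The library IGF1R_flfl 3 stood apart from the others of its group in collagen RNA. It was the lowest of all 8 libraries for 30 of the 40 tested collagen genes and the highest for 0, while OMP_IGF1R 11 was the highest for 17. Summed over the 42 genes, collagen stood at 2840, 2845, 2548 and 3217 CPM in OMP_IGF1R 11, 12, 17 and 18, against 2883, 2880, 2161 and 2773 CPM in IGF1R_flfl 1, 2, 3 and 13. Apart from IGF1R_flfl 3, the IGF1R_flfl sums lay inside the range of the OMP_IGF1R sums. Summed without Col1a1, Col1a2 and Col3a1, collagen stood at 1188, 1132, 1041 and 1164 CPM in OMP_IGF1R libraries, against 1085, 1040, 787 and 1043 CPM in IGF1R_flfl libraries. These groups overlapped through OMP_IGF1R 17. Without IGF1R_flfl 3, 2 collagen genes were called higher, Col27a1 and Col9a2, against 1.97% of all genes in that fit. At an unadjusted edgeR p under 0.05, 8 were higher, against 8.73% of all genes. A positive fold change was found in 27 of 40, a count given without its share over all genes, whose median log2 fold change was -0.0086. The sign and unadjusted counts without single libraries, and the ratios below, were chosen after the data had been seen.

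**Figure D3:**
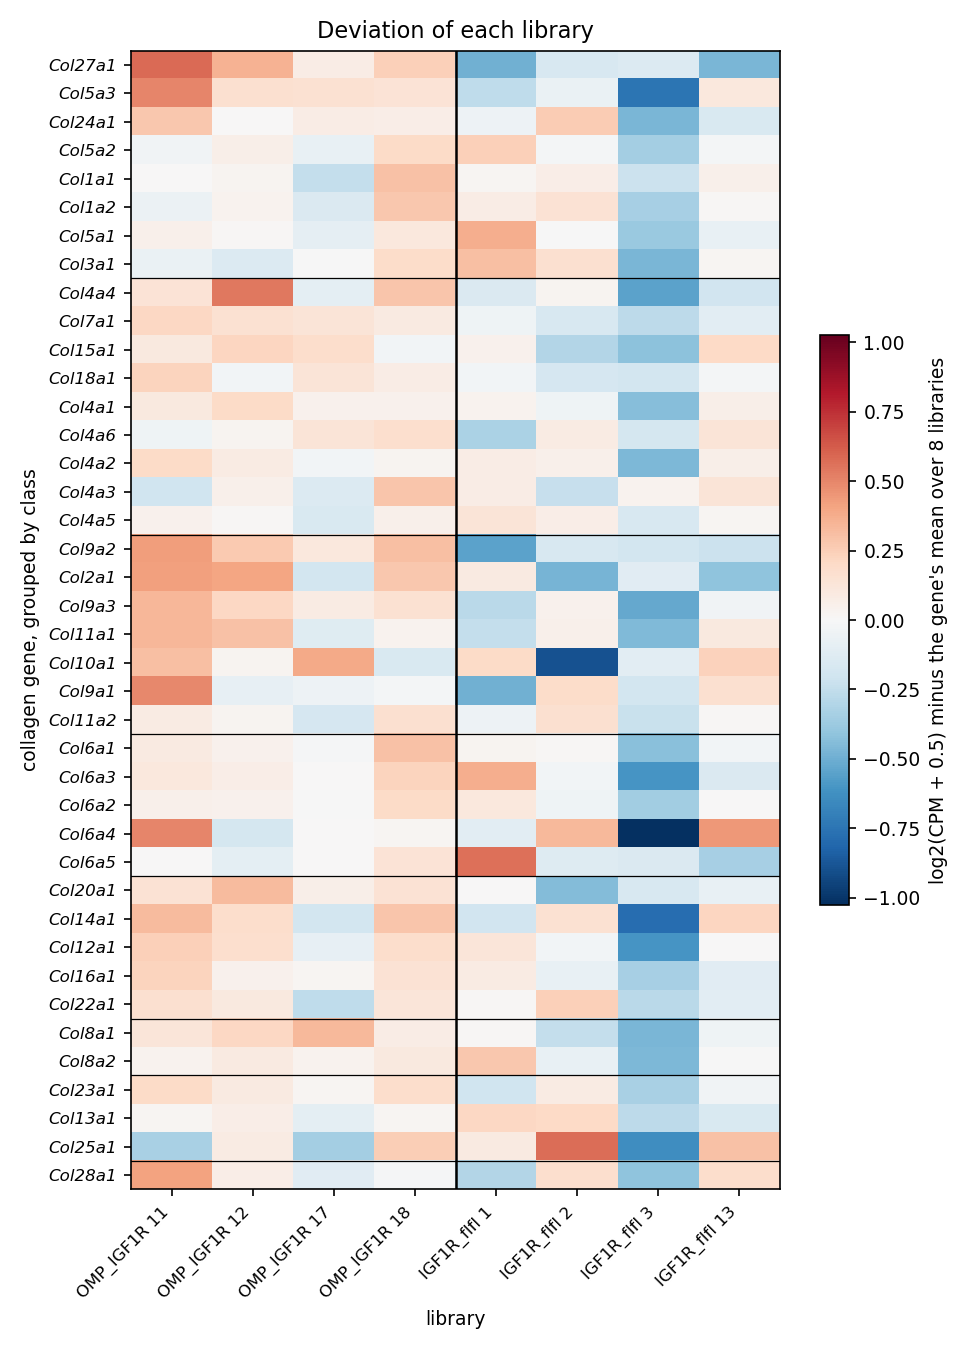
Each cell is a library's log2(CPM + 0.5) minus the mean of that gene over the 8 libraries, for the 40 tested collagen genes (rows, by class) and the 8 libraries (columns, OMP_IGF1R left of the black line, IGF1R_flfl right of it). The column of IGF1R_flfl 3 is blue, that is low, in most rows and holds the lowest value of 30 of the 40 genes.

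The summed level of fibroblast markers was 1174, 1112, 1130 and 1162 CPM in OMP_IGF1R 11, 12, 17 and 18, against 1087, 1107, 806 and 1082 CPM in IGF1R_flfl 1, 2, 3 and 13, so every OMP_IGF1R library was above every IGF1R_flfl library and IGF1R_flfl 3 was low in this sum too. The gap was narrow, 1112 CPM in OMP_IGF1R 12 against 1107 CPM in IGF1R_flfl 2. That IGF1R_flfl library held 62.5 CPM of Thy1, against 5.31 to 11.9 CPM in the others. Gsn (means of 407 CPM in OMP_IGF1R and 356 CPM in IGF1R_flfl libraries) and Sfrp1 (193 and 183 CPM) were the largest parts of the sum. The sum, and ratios to it, therefore weigh these genes most. Among the OMP_IGF1R libraries the order differed, since OMP_IGF1R 17 had the lowest collagen sum and OMP_IGF1R 12 the lowest fibroblast sum. Of 24 fibroblast markers 22 passed the filter, and Tcf21 was at 0. By edgeR 1 rose (Efemp1, an elastic fibre protein, log2 fold change 0.39, edgeR adjusted p = 0.0142, lost without OMP_IGF1R 12 or 18) and 0 fell, where 2.83% of all genes tested rose and 5.37% fell. DESeq2 and voom each called 1 higher and 0 lower. At an unadjusted edgeR p under 0.05, 3 were higher, Pdgfra among them, and 1 was lower, Pdgfrl (log2 fold change -0.22). Over all genes tested, 9.35% were higher and 14.1% lower at that threshold. The median log2 fold change of the list was 0.16, or 0.071 without IGF1R_flfl 3. The collagen sum divided by the fibroblast sum was 2.5 ± 0.217 in OMP_IGF1R libraries and 2.63 ± 0.0521 in IGF1R_flfl libraries (SD, n = 4 each), and the groups overlapped. Divided in the same way, Col27a1, Col9a2 and Col7a1 also overlapped between the groups, each through IGF1R_flfl 3 alone, whose ratio for Col27a1 was 0.0272, against 0.0157 to 0.0195 in the other IGF1R_flfl libraries and 0.0226 to 0.0311 in OMP_IGF1R libraries. Of the 40 genes, 1 was then higher without overlap, Col9a3, and 1 lower, Col4a5, where 1.69% of all genes tested were higher without overlap and 18.1% lower. The division moves the difference between the groups by -0.177 on the log2 scale for every gene. It is not the same in every library, since the divisor was 806 CPM in IGF1R_flfl 3 and 1082 to 1174 CPM in the others. The part of the fibroblast share in the collagen differences was not tested.

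**Figure D4:**
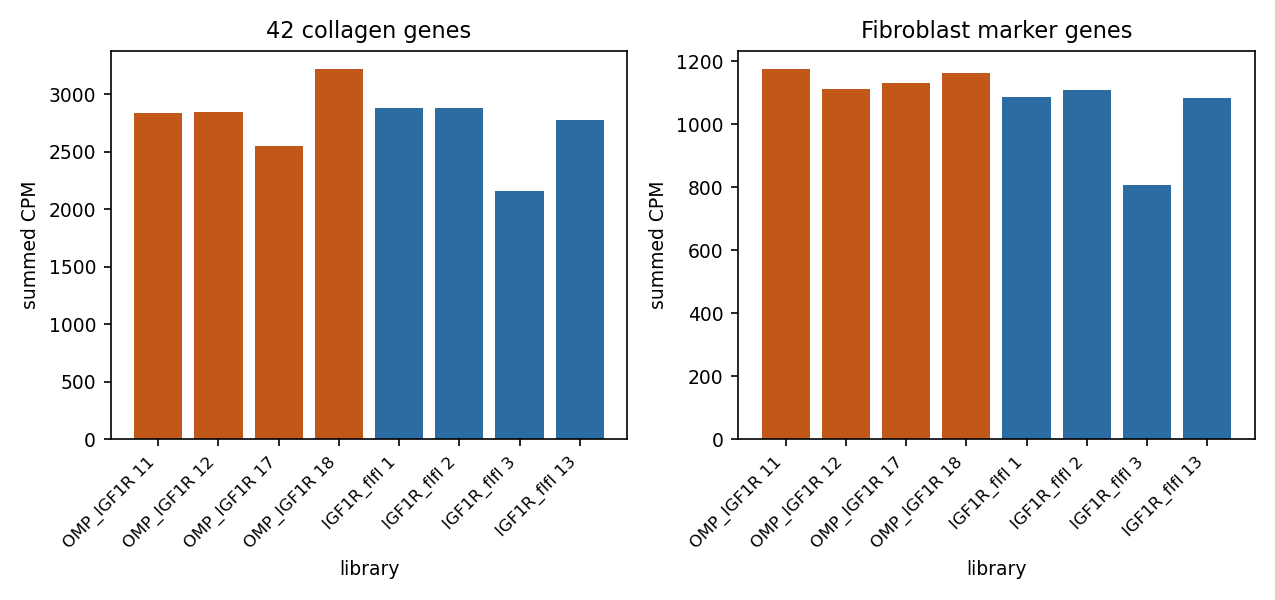
Summed CPM (y axis, from 0) of the 42 collagen genes (left panel) and of the fibroblast marker genes (right panel) in the 4 OMP_IGF1R libraries (orange) and the 4 IGF1R_flfl libraries (blue), 1 bar per library. IGF1R_flfl 3 is the lowest bar in both panels, at 2161 and 806 CPM.

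Levels of different chains were compared per length, as CPM per kilobase of exon. The length is the union of all annotated exons of a gene, so the order of the genes depends on the annotation. On that scale Col1a1 led at 108 ± 16.8 in OMP_IGF1R libraries and 104 ± 9.3 in IGF1R_flfl libraries, and Col1a2 followed at 67.1 ± 8.78 and 65 ± 9.15 (SD, n = 4 each). Col8a2, Col3a1 and Col6a1 came next, at means over the 8 libraries of 23.4, 19.7 and 15.5 CPM per kilobase. Each of these 5 genes was above the next in the order in all 8 libraries. Col23a1 (9.02), Col16a1 (8.67), Col14a1 (7.53) and Col12a1 (7.28) followed, and these neighbours were not separated: Col14a1 was above Col12a1 in 5 of 8 libraries. On this scale the transmembrane chain Col23a1 ranked 6 of 42, above the chains of type IV. In CPM, Col23a1 and Col4a1 were close, at means over the 8 libraries of 51.7 and 48. Col1a2 was above Col1a1 in mean CPM, at 821 and 695, with exon lengths of 12426 and 6563 bases. The 3 genes that rose were in the middle and lower part of the order, with Col9a2 at 5.73 ± 0.538, Col27a1 at 2.34 ± 0.355 and Col7a1 at 2.16 ± 0.075 CPM per kilobase in OMP_IGF1R libraries, and at 3.86 ± 0.478, 1.5 ± 0.2 and 1.75 ± 0.118 in IGF1R_flfl libraries (SD, n = 4 each). Col7a1, Col27a1 and Col4a5 were neighbours and each was above the next in only 4 of 8 libraries.

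**Figure D5:**
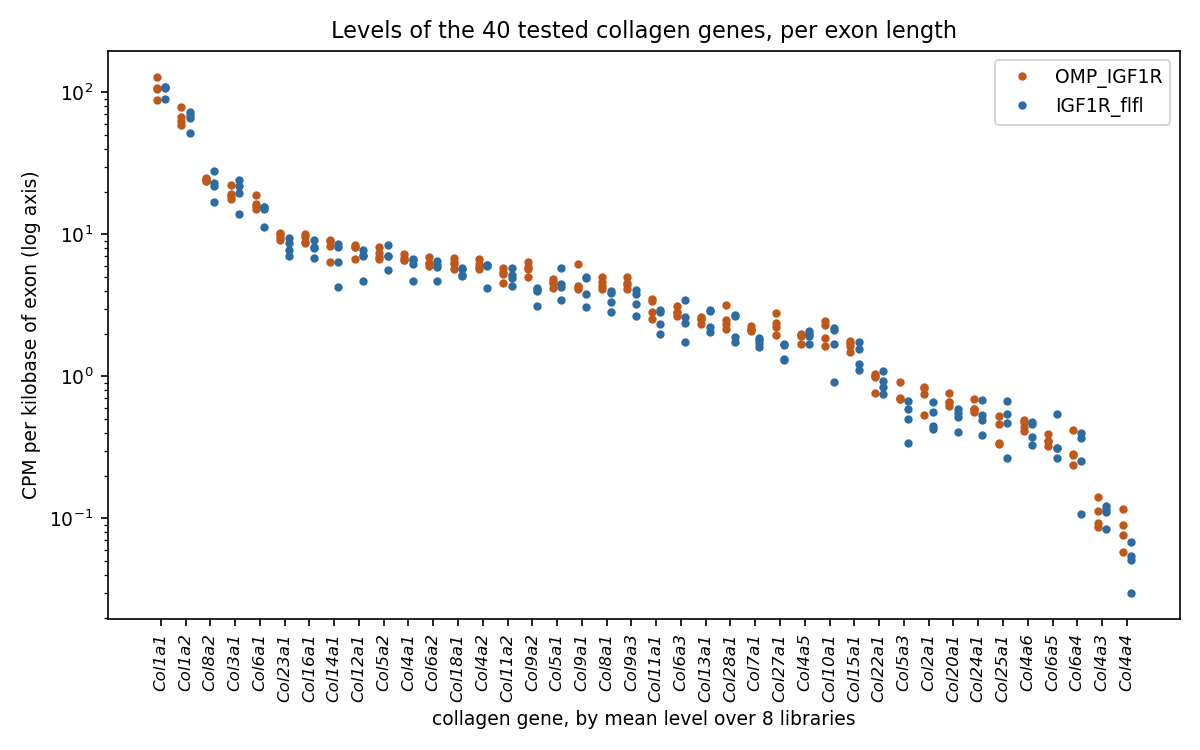
CPM per kilobase of exon (y axis, log scale) of the 40 tested collagen genes, ordered by their mean over 8 libraries (x axis), with 1 point per library, OMP_IGF1R orange and left, IGF1R_flfl blue and right. Col1a1 and Col1a2 stand above all other collagen genes in every library, and Col4a3 and Col4a4 are the lowest of the 40.

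The proportions of chains of the same collagen type overlapped between the groups. The level of Col1a2 per kilobase was 0.626 ± 0.0308 of that of Col1a1 in OMP_IGF1R libraries and 0.622 ± 0.0395 in IGF1R_flfl libraries (SD, n = 4 each). The size of such a ratio depends on the exon lengths used, which are the same for both groups, and does not measure the make-up of a molecule. The ratio of Col4a2 to Col4a1, neighbours on chromosome 8 that lie head to head and overlap at their starts, was 0.894 ± 0.0593 and 0.924 ± 0.0336. The ratio of Col6a2 to Col6a1 was 0.385 ± 0.0135 and 0.404 ± 0.0177, and that of Col8a2 to Col8a1 was 5.39 ± 0.495 and 6.39 ± 0.524. In type IX, the ratio of Col9a2 to Col9a1 was 1.24 ± 0.166 in OMP_IGF1R libraries and 0.935 ± 0.131 in IGF1R_flfl libraries. The groups of that last ratio overlapped, since OMP_IGF1R 11 stood at 1.02 and IGF1R_flfl 3 at 1.07.

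Few genes for the enzymes and partners of collagen were called. Of 21 tested genes for chain modification and folding, among them the prolyl hydroxylase P4ha1 and the collagen chaperone Serpinh1, 0 were called by edgeR, with 2 lower and 0 higher at an unadjusted p under 0.05. Over all genes tested, 14.1% were lower and 9.35% higher at that unadjusted threshold. DESeq2 and voom each called 1 of the 21 lower, and their median log2 fold change was 0.015. Serpinh1 averaged 92.1 ± 7.07 CPM in OMP_IGF1R libraries and 102 ± 16.1 CPM in IGF1R_flfl libraries (SD, n = 4 each).

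For the counts that follow, the shares over all genes tested were 2.83% that rose and 5.37% that fell. At an unadjusted edgeR p under 0.05 they were 9.35% higher and 14.1% lower. Of 13 tested genes for procollagen processing and cross-linking, 0 rose and 1 fell. It was Pcolce2, an enhancer of the protease that trims the ends of procollagen, at 138 ± 8.84 CPM in OMP_IGF1R libraries and 237 ± 21.9 CPM in IGF1R_flfl libraries (SD, n = 4 each; log2 fold change -0.78, edgeR adjusted p = 0.00196). Its call held in all 8 fits that left out 1 library. Of 13 tested genes for collagen degradation, 0 rose and 1 fell, the membrane-bound metalloprotease Mmp16 (22.7 ± 1.29 CPM in OMP_IGF1R libraries, 35.8 ± 6.48 CPM in IGF1R_flfl libraries, log2 fold change -0.66, edgeR adjusted p = 0.0122). Of 8 tested collagen receptors, 0 were called by edgeR, DESeq2 or voom and 0 had an unadjusted p under 0.05 in either direction. Thbs1, a matricellular protein, was the 1 of 16 tested fibril-associated genes that rose (168 ± 16.5 CPM in OMP_IGF1R libraries, 122 ± 7.37 CPM in IGF1R_flfl libraries, log2 fold change 0.46, edgeR adjusted p = 0.0108).

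The non-collagen proteins of the basement membrane had more calls. Of 18 tested laminins, nidogens and related genes, 4 rose and 0 fell, with a median log2 fold change of 0.20. Over all genes tested, 2.83% rose and 5.37% fell. Agrn, a heparan sulfate proteoglycan, averaged 146 ± 14 CPM in OMP_IGF1R libraries and 101 ± 8.27 CPM in IGF1R_flfl libraries (SD, n = 4 each; log2 fold change 0.54, edgeR adjusted p = 0.00761). Nid2, a linker of laminin and type IV collagen, averaged 17.6 ± 0.34 and 13.7 ± 0.526 CPM (SD, n = 4 each; log2 fold change 0.36, edgeR adjusted p = 0.013). Lamb3 and Lama1 had log2 fold changes of 0.40 and 0.56. Agrn and Nid2 held in all 8 fits that left out 1 library, Lamb3 was lost in 3 (without IGF1R_flfl 1, OMP_IGF1R 11 or OMP_IGF1R 18) and Lama1 in 7, all but the fit without IGF1R_flfl 2. In the list of TGF-beta and connective tissue growth factors, 2 of 16 rose and 0 fell: Tgfb3, a ligand, with a log2 fold change of 0.45 (edgeR adjusted p = 0.00704), and Ltbp1, which holds latent TGF-beta in the matrix, with 0.36 (edgeR adjusted p = 0.0202, lost without OMP_IGF1R 12 or 18).

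Markers of other cells that can make collagen were measured beside these genes, and their part in the differences was not tested. At an unadjusted edgeR p under 0.05, 9.35% of all genes tested were higher and 14.1% lower. Of 14 bone cell markers 0 were called by edgeR, DESeq2 or voom, 4 were higher at an unadjusted p under 0.05, and they summed to 520 to 647 CPM in OMP_IGF1R libraries and 374 to 538 CPM in IGF1R_flfl libraries, the lowest in IGF1R_flfl 3. Of 13 smooth muscle and pericyte markers 0 were called by edgeR (2 higher and 1 lower at an unadjusted p under 0.05, 1 lower by DESeq2, 0 by voom), at sums of 1742 to 1872 and 1341 to 1764 CPM. The 2 higher were Rgs5 and Des. Des stood at 26.3 CPM in OMP_IGF1R 17, against 0.516 to 1.14 CPM in the other libraries. Rgs5 was the largest part of the sums, at means of 1060 CPM in OMP_IGF1R and 914 CPM in IGF1R_flfl libraries. Of 14 endothelial markers 0 were called by edgeR (1 higher at an unadjusted p under 0.05, 1 higher by DESeq2, 0 by voom), with a median log2 fold change of 0.14. Of 14 ensheathing and Schwann cell markers 0 were called by edgeR (1 higher at an unadjusted p under 0.05, 0 by DESeq2, 1 higher by voom), at 527 to 596 CPM in OMP_IGF1R libraries and 458 to 578 CPM in IGF1R_flfl libraries other than IGF1R_flfl 2, which held 1282 CPM. That library also held 1598 CPM of olfactory bulb and oligodendrocyte markers, and OMP_IGF1R 17 held 559 CPM of skeletal muscle markers. Of 11 markers of horizontal basal cells, the epithelial stem cells that rest on the basement membrane, 3 rose and 0 fell, at sums of 475 to 694 CPM in OMP_IGF1R libraries and 376 to 448 CPM in IGF1R_flfl libraries, without overlap, with the highest sum in OMP_IGF1R 17. The 3 were Itgb4, Dsc3 and Krt17, and none was called without OMP_IGF1R 18. Dsc3 was also lost without IGF1R_flfl 1 or OMP_IGF1R 12, and Krt17 was lost in 7 of the 8 fits that left out 1 library, all but the fit without IGF1R_flfl 3. Of 14 mature neuron markers 0 rose and 13 fell (median log2 fold change -0.67). Among all genes tested, the shares that rose and fell were 2.83% and 5.37%.

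In the authors' deposited table, collagen genes numbering 5 were higher at an adjusted p under 0.05, against 4.93% of the 15891 genes with an adjusted p there. Of the other collagen genes 0 were lower, 34 were not called and 3 had no adjusted p. The share of all genes lower in that table is not given here. The 5 in the authors' deposited table were Col27a1 (log2 fold change 0.57), Col9a2 (0.52), Col7a1 (0.29), Col8a1 (0.34) and Col9a3 (0.35). The same 5 genes were called by DESeq2 in the counts here.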

How the data were processed

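RNA of dissected olfactory epithelium was sequenced from stranded, poly(A)-selected libraries, per the labels' protocols. The authors deposited raw whole-number counts of each gene in each library. Per the submitters' processing notes the tools were TopHat2 2.0.14, Trim Galore 0.3.7, DESeq2 and SAMtools 1.2, with build GRCm38 (mm10). How reads were counted, and whether by strand, is not given in the sources used here, so overlapping genes may share reads. By the gene bounds given with the deposited counts, 9 of the 42 collagen genes overlap another gene with deposited counts. The authors' deposited table of their comparison gives a log2 fold change and an adjusted p-value per gene, per the file headers, and is used for description.

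Libraries were grouped by title. Total counts of 18802471 to 27793375 set the precision, and genes of few reads have wide intervals. Counts were tested with edgeR 4.0.16 in R 4.3.3 (TMM, filterByExpr, quasi-likelihood F-test, Benjamini-Hochberg over the 17381 genes tested, threshold 0.05), and the script was tested on simulated counts. SEs are the absolute log2 fold change over the square root of F. Within-group pairs of libraries had chi-square values averaging 11.9 to 108.9 over genes, above sampling noise, so none was counted as a copy. Exon lengths, the union of exons of a gene, come from GENCODE M21, and all 42 genes had one.

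The collagen genes, their classes, the lists and the tests were chosen with earlier results of these data known. All collagen genes could be named, with every library's value for those called and the 2 most abundant of each class, and up to 3 called genes of each list. The alternatives tried were edgeR with upper-quartile or with DESeq2 factors, keeping all genes with 1 count or those with 1 CPM in at least 4 libraries, the tests of DESeq2 1.42.0 and of limma 3.58.1 (voom), leaving out each library, and leaving out IGF1R_flfl 2 and OMP_IGF1R 17 together. Counts of positive signs and of unadjusted p-values without single libraries, and levels relative to fibroblast genes, were chosen after seeing the data. 1 further gene with a symbol of this form is not reported here, and Emid2, a collagen chain listed under another symbol, falls outside the rule.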

Additional observations from a re-analysis of the deposited data

Results flagged for a closer look

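A library's value was singled out where its gap to the nearest other library of its group was large against the range of the group (Dixon's test at 95%, 4 libraries a group). This happened in 14 of the 134 groups examined, 7 of them among the 80 of single collagen genes, and chance alone singles out about 1 in 20 groups.

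In IGF1R_flfl 3, the low library, 3 collagen genes were singled out: Col1a1 at 593 CPM (702 to 722 in the other IGF1R_flfl libraries), Col4a2 at 27.8 CPM (39.8 to 40.4) and Col6a1 at 49.8 CPM (65.7 to 68.5). The summed level of all collagen genes there was 2161 CPM and that of the FACIT class, without type IX, 157 CPM. That of fibroblast markers was 806 CPM and that of bone cell markers 374 CPM. In OMP_IGF1R 11, Col5a3 was high at 6.17 CPM (4.68 to 4.79 in the other OMP_IGF1R libraries) and Col9a1 was high at 31.5 CPM (20.9 to 21.9). Col22a1 was low in OMP_IGF1R 17 at 6.99 CPM (9.12 to 9.54), and Col9a2 was low in IGF1R_flfl 1 at 9.74 CPM (12.4 to 12.9). Marker sums were high in OMP_IGF1R 17 for skeletal muscle (559 CPM), and in IGF1R_flfl 2 for ensheathing and Schwann cells (1282 CPM) and for olfactory bulb and oligodendrocytes (1598 CPM).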

How the results depend on the processing

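No paired analysis was possible because the groups share no replicate number. Of the 40 tested collagen genes 25 kept their sign under every alternative that gave them a value (14 for Col4a4, 15 for the others). DESeq2 called 5 collagen genes higher, a count given without its share over all genes. With 1 library left out the number called higher ran from 0 to 5, the number of genes called over all genes, in either direction, from 569 to 1477, and the number of collagen genes higher at an unadjusted p under 0.05 from 6 to 13. Divided by fibroblast genes, 1 collagen gene was higher and 1 lower without overlap. The cause was not tested. No collagen gene was called lower under any alternative, and the collagen median ran from 0.098 to 0.24. Signs turned for the other 15. With upper-quartile factors the log2 fold change was 0.019 for Col13a1, 0.0017 for Col4a5 and 0.014 for Col6a5, and with voom it was -0.0035 for Col5a1 and 0.0066 for Col6a5. Without IGF1R_flfl 2 and OMP_IGF1R 17 it was -0.040 for Col10a1, 0.108 for Col13a1, 0.078 for Col25a1, 0.027 for Col3a1, -0.0055 for Col4a3 and 0.046 for Col4a5. With 1 library left out it ran from -0.053 to 0.14 for Col1a1, -0.043 to 0.12 for Col1a2, -0.16 to 0.071 for Col3a1, -0.14 to 0.10 for Col4a3, -0.081 to 0.026 for Col4a5, -0.085 to 0.17 for Col5a1, -0.028 to 0.16 for Col5a2, -0.15 to 0.33 for Col6a4, -0.13 to 0.25 for Col6a5, -0.0021 to 0.23 for Col8a2, -0.0085 to 0.13 for Col11a2, -0.093 to 0.071 for Col13a1 and -0.0080 to 0.18 for Col22a1. Depth limits Col4a3, Col4a4, Col6a6 and Col19a1.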
